A study of Homo sapiens with 11 samples.

Results

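MV4-11 cells given Chb-M' were set against MV4-11 cells given the solvent DMSO, by subtracting the log2 level of each gene on the DMSO array from its level on the Chb-M' array. The comparison used 2 of the 11 arrays of the study, and 22109 genes had a transcript cluster (the array's group of probes for 1 transcript locus) that carried their symbol alone. MV4-11 is an established human cell line from an acute myeloid leukaemia with a KMT2A fusion. The Chb-M' group was 1 array of cells exposed to 1 µM of the compound for 6 h, Chb-50, a second alkylating conjugate, was 1 array at the same dose and time, and DMSO was 1 array at the same time. The other 8 arrays were of cells transduced with shRNAs against RUNX1, RUNX2 and RUNX3 in every combination, with a luciferase shRNA alone as their control, and kept with 3 µM doxycycline for 24 h. Those 8 arrays show here how far each gene moves when neither compound is present. The compound and DMSO cells were given neither an shRNA nor doxycycline, as far as the labels say, so the knockdown arrays differ from them in virus, drug and time.

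Pyrrole-imidazole polyamides are small molecules that lie in the minor groove of DNA and read short runs of base pairs, and an alkylating group joined to one bonds covalently to DNA near where it binds. Chb-M' is known as a conjugate made to read the core letters that RUNX transcription factors bind. RUNX1, RUNX2 and RUNX3 bind DNA with the partner CBFB, and RUNX1 with CBFB is a master regulator of blood cell formation. A covalent lesion in DNA can also stop RNA polymerase within a gene, stall a replication fork and activate p53, which switches on genes for arrest, repair and death.

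With 1 array on each side there was no spread within a group. A difference of at least 2-fold was therefore counted without a test. Beside it stood a limma fit over all 11 arrays, which took its spread from the 8 knockdown arrays after additive terms for each shRNA. Joint effects of the shRNAs beyond addition thus count as spread. The fit assumed that the Chb-M' and DMSO arrays vary as the knockdown arrays do. Below, rose and fell are used of genes that passed this fit at a Benjamini-Hochberg adjusted p under 0.05 over the 12147 genes that reached the level filter. Of these genes, 106 (0.873%) lay at least 2-fold apart, 38 higher with Chb-M' (0.313%) and 68 lower (0.56%). Among the 38, 3 reached the level filter only on the Chb-M' array, and among the 68, 2 reached it only on the DMSO array. The limma fit passed 74 (0.609%), of which 16 rose (0.132%) and 58 fell (0.477%), and 1688 genes had an unadjusted p under 0.05. These calls were fragile. When 1 knockdown array at a time was left out of the fit, 6 of the 8 fits passed 0 genes, although 1519 to 1608 genes had an unadjusted p under 0.05 in them. The fit without the shRUNX1+shRUNX3 array passed 5 genes, and the fit without the shRUNX1 array passed 77, of which 57 were among the 74. In each of the 8 fits all 74 genes had an unadjusted p under 0.05. That is no sign of stability, because the 74 were selected on small p. Leaving out a knockdown array also changes only the spread and not the difference.

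For most of these genes the Chb-M' array was the most extreme of all 11. The genes were picked by their Chb-M' and DMSO levels, so shares above those of all genes tested are partly built in. The Chb-M' array lay below all other 10 arrays for 57 of the 68 genes at least 2-fold lower, where it did so for 14.2% of all genes tested. It lay above all other 10 for 28 of the 38 genes at least 2-fold higher, against 17.1% of all genes. The DMSO array lay above all others for 20 of the 68, against 9.01% of all genes, and below all others for 19 of the 38, against 11.8%. A gap of at least 2-fold to every other array was found for 1 gene above and 1 below with Chb-M' (0.00823% each), both small RNAs. Among all genes tested the median difference was 0.02 on the log2 scale, with an SD of 0.29 across genes. Of the 11 tested markers of the line, some had high levels. LYZ had a level of 11.13 with Chb-M' and 11.05 with DMSO, and CD68 had 10.01 with Chb-M' and 9.88 with DMSO. The receptor gene FLT3 had 9.71 with Chb-M' and 9.87 with DMSO. Others were lower. MPO had 4.89 with Chb-M' and 4.93 with DMSO, close to the B cell gene CD79A with 4.89 and 4.92. ITGAX had 5.32 with Chb-M' and 5.28 with DMSO. PTPRC was lowest of all 11 arrays with Chb-M', at a difference of -0.69 from DMSO. The T cell genes CD3D and CD3E, the B cell gene MS4A1, the red cell gene HBB and the epithelial gene EPCAM stayed under the level filter of 3.80 on every array, while the platelet genes PF4 and ITGA2B, the T cell gene CD8A, the B cell gene CD79A and the epithelial gene KRT18 reached it. These 5 of 18 listed markers of other cell types had a median difference of 0.29, and their part in the results was not tested.

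The p53 targets of arrest and growth control, called the p53 arrest list below, had the highest median of the 44 gene lists. Of the 16 tested members of a list of 18 such genes, 14 lay above 0, 6 lay at least 2-fold higher and 3 rose, with a median difference of 0.73. CDKN1A, the p21 inhibitor of cyclin-dependent kinases, had a level of 7.36 with Chb-M' and 5.91 with DMSO. On the Chb-50 array it had 7.14, and the 8 knockdown arrays lay between 5.33 and 5.95 with a median of 5.74. Both compound arrays thus lay more than 1 log2 unit above the other 9, and CDKN1A rose by 1.44 (SE 0.21, limma adjusted p = 0.047). SERTAD1, a transcriptional co-regulator that binds CDK4, had a level of 7.12 with Chb-M' and 6.06 with DMSO, against 6.71 with Chb-50 and 5.51 to 5.75 on the knockdown arrays (median 5.68). SERTAD1 rose by 1.05 (SE 0.12, limma adjusted p = 0.033), and its level with DMSO already lay above every knockdown array. GADD45A, a DNA damage-inducible stress protein, had levels of 7.36 with Chb-M' and 6.41 with DMSO and rose by 0.95 (SE 0.14, limma adjusted p = 0.045). The other members of the list at 2-fold included SESN2 at 1.40, the kinase gene PLK2 at 1.37 and SESN1 at 1.00, none of which passed the fit. The sestrins SESN1 and SESN2 restrain the growth kinase mTORC1.

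Within the arrest list the height of a gene went with its length on the genome. The 12 members that span under 100 kb had a median difference of 0.93, and every one lay above 0. The 4 members that span 100 kb or more had a median of -0.16, from FBXW7 and SUSD6 at -0.42 each, over PRDM1 at 0.09, to SESN1. FBXW7, the substrate receptor of a ubiquitin ligase, had a level of 4.85 with Chb-M' and 5.28 with DMSO.

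**Figure D1:**
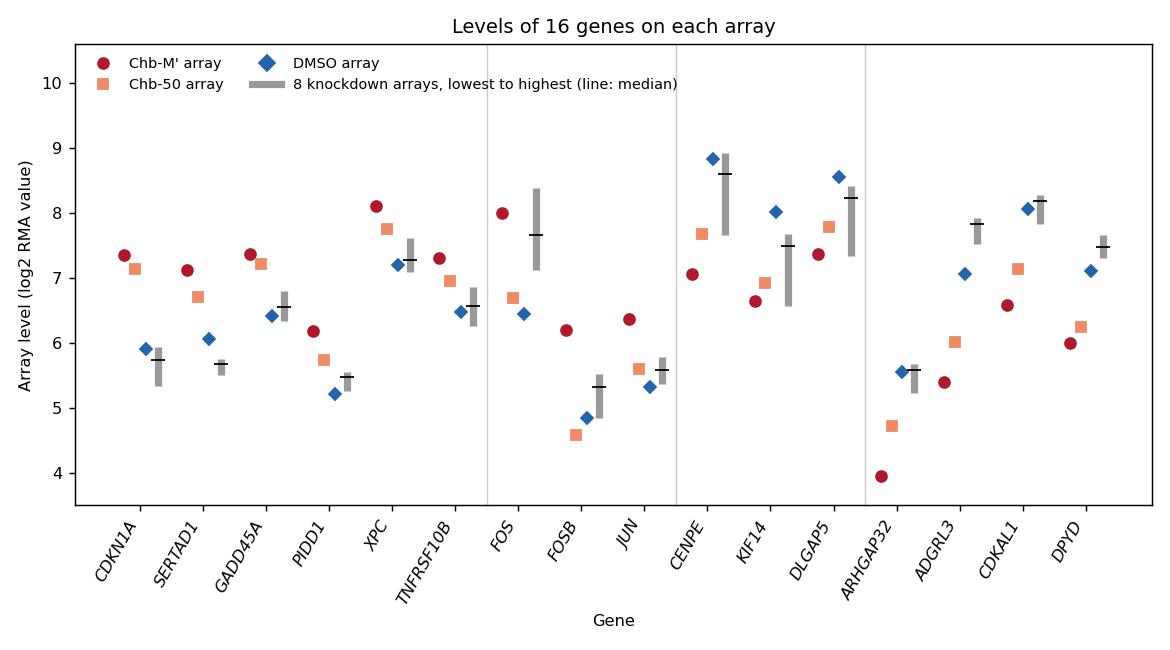
Level (log2 RMA value, vertical axis) of 16 genes on the Chb-M' array (circle), the Chb-50 array (square), the DMSO array (diamond) and the 8 knockdown arrays (grey bar from lowest to highest, with the median as a line). The grey lines separate p53 targets, immediate early genes, mitosis genes and long genes; CDKN1A stands at 7.36 with Chb-M' and 5.91 with DMSO, and ARHGAP32 at 3.96 with Chb-M' and 5.55 with DMSO.

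Genes through which p53 promotes cell death also lay higher. Of the 16 tested members of 21, 14 lay above 0, 1 lay at least 2-fold higher and 2 rose, with a median of 0.44. PIDD1, a death domain protein that activates caspase-2, had levels of 6.18 with Chb-M' and 5.22 with DMSO, and the knockdown arrays lay between 5.26 and 5.55 with a median of 5.48. PIDD1 rose by 0.97 (SE 0.13, limma adjusted p = 0.034). TNFRSF10B, a death receptor for the ligand TRAIL, had levels of 7.31 with Chb-M' and 6.48 with DMSO and rose by 0.84 (SE 0.13, limma adjusted p = 0.049). For both genes the Chb-M' array lay above all 10 others. The receptor gene EDA2R had the largest difference of the list, 1.12, but its level of 6.94 with Chb-M' lay only just above the highest knockdown array, 6.85, and its limma adjusted p was 0.26. The BH3-only genes PMAIP1 and BBC3, whose proteins free the mitochondrial pathway of cell death, lay 0.65 and 0.55 higher without passing. APAF1, the scaffold of the apoptosome, lay lower, at 7.63 with Chb-M' and 8.15 with DMSO.

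The p53 targets of DNA repair held 1 gene that rose out of 7 tested, with a median of 0.39. XPC, which recognises helix-distorting lesions for nucleotide excision repair, had levels of 8.11 with Chb-M' and 7.19 with DMSO, and the knockdown arrays ran from 7.10 to 7.62 with a median of 7.28. XPC rose by 0.92 (SE 0.13, limma adjusted p = 0.043). POLH, the DNA polymerase that copies past ultraviolet damage, lay 0.69 higher, and DDB2, the partner in damage recognition, 0.66 higher, neither passing. Of 19 targets that feed back on p53 or have other roles, 15 lay above 0 with a median of 0.42, 0 at 2-fold and 0 passing the fit. MDM2, the ubiquitin ligase that limits p53, had the largest difference among them, 0.82, with levels of 9.58 with Chb-M' and 8.76 with DMSO. COP1, another ubiquitin ligase for p53, had the lowest, -0.58. Of the 16 tested regulators of p53, 6 lay above 0 and 10 below, and the 7 that span 100 kb or more all lay below 0, with a median of -0.27 against 0.18 for the 9 shorter ones. The checkpoint kinase gene ATR was at -0.48 and the acetyltransferase gene CREBBP at -0.45. TRIM24 was at -0.27 and BCL11A at -0.10.

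Outside the gene lists, 7 further protein-coding genes rose. SNAI1, a repressor of the E-cadherin gene, had levels of 4.89 with Chb-M' and 3.79 with DMSO and rose by 1.09 (SE 0.15, limma adjusted p = 0.041). AMER1, a scaffold of the beta-catenin destruction complex, had levels of 5.33 with Chb-M' and 4.50 with DMSO and rose by 0.83. For some of these genes the DMSO array was the one that stood apart. PTPRCAP, the phosphoprotein that associates with the phosphatase CD45, had 3.84 with Chb-M' and 2.88 with DMSO, while the knockdown arrays lay between 3.64 and 3.85. The protease inhibitor gene CST6 had 4.29 with Chb-M' and 3.54 with DMSO, against 4.04 to 4.20 on the knockdown arrays. So Chb-M' lay within the knockdown range for PTPRCAP and close to it for CST6, and the DMSO array lay below that range for both.

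Immediate early genes, which cells transcribe within minutes of a stimulus, lay higher with Chb-M', though none passed the fit. Of 30 tested members of 41, 26 lay above 0 and 3 lay at least 2-fold higher, with a median of 0.30 against 0.02 over all genes tested. FOS, a subunit of the AP-1 transcription factor, had a level of 8.01 with Chb-M', 6.69 with Chb-50 and 6.45 with DMSO. The knockdown arrays ran from 7.12 to 8.39 with a median of 7.65. Chb-M' therefore lay inside the knockdown range for FOS, and DMSO below it, and the difference of 1.56 had a limma adjusted p of 0.10. FOSB, a close relative of FOS, had 6.21 with Chb-M', 4.59 with Chb-50 and 4.84 with DMSO, and the knockdown arrays lay between 4.85 and 5.53 with a median of 5.32. JUN, the partner of FOS in AP-1, had 6.38 with Chb-M', 5.60 with Chb-50 and 5.32 with DMSO, against 5.37 to 5.78 on the knockdown arrays (median 5.58). For FOSB and JUN the Chb-M' array lay above all 10 others, with differences of 1.36 and 1.05 from DMSO and limma adjusted p of 0.084 and 0.085. MYC lay at 9.60 with Chb-M' and 9.63 with DMSO, and KLF2 had the lowest difference of the list, -0.21.

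Genes of G2 and mitosis lay lower almost throughout. Of 46 tested members of 48, 45 lay below 0, where 44.5% of all genes tested did, and 7 lay at least 2-fold lower, but 0 passed the limma fit. The median was -0.55, and it was -0.56 when Chb-M' was set against the median of the knockdown arrays in place of DMSO. CENPE, a kinesin motor of the kinetochore, had a level of 7.06 with Chb-M', 7.67 with Chb-50 and 8.83 with DMSO, and the knockdown arrays ran from 7.66 to 8.92 with a median of 8.60. Its difference was -1.77 with a limma adjusted p of 0.084. KIF14, a kinesin needed for cytokinesis, had 6.65 with Chb-M', 6.92 with Chb-50 and 8.02 with DMSO, against 6.58 to 7.68 on the knockdown arrays (median 7.49). DLGAP5, which stabilises spindle microtubules, had 7.37 with Chb-M', 7.78 with Chb-50 and 8.56 with DMSO, against 7.33 to 8.42 (median 8.23). So for KIF14 and DLGAP5 at least 1 knockdown array was lower still than Chb-M', and the Chb-M' array was the lowest of all 11 for 6 of the 46 genes. The other members at 2-fold were KIF18A at -1.21, ASPM at -1.07, HMMR at -1.04 and KIF20A at -1.02. KIF18A and KIF20A are kinesin motors of mitosis, and ASPM and HMMR act at spindle poles. CCNB1, the mitotic cyclin, was at -0.91. Whether fewer cells were in mitosis or each cell held less of these RNAs cannot be told apart in bulk RNA.

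S phase genes lay higher, and here the DMSO array carried part of the difference. Of 35 tested members of 36, 33 lay above 0 and 1 at least 2-fold higher, with 0 passing and a median of 0.38. Against the median of the knockdown arrays, Chb-M' lay 0.18 higher at the median and DMSO lay 0.23 lower. CCNE2, a cyclin that drives entry into S phase, had 8.39 with Chb-M' and 7.37 with DMSO, with knockdown arrays from 6.32 to 8.00 (median 7.88). CHAF1B, a subunit of the assembly factor that places histones on new DNA, had 8.04 with Chb-M' and 7.15 with DMSO, against 6.48 to 7.80 (median 7.56). POLA1, the catalytic subunit of the polymerase that primes replication, which spans 303 kb, was the lowest of the list at -0.29. Replication-dependent histone genes lay lower: of 18 tested members of 55, 17 lay below 0, with a median of -0.37 and 1 at 2-fold. H2BC3 had 4.53 with Chb-M', 5.11 with Chb-50 and 5.78 with DMSO, and the knockdown arrays ran from 4.47 to 5.63 with a median of 5.46. Histone genes exist in near-identical copies, so probes may not tell members apart.

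**Figure D2:**
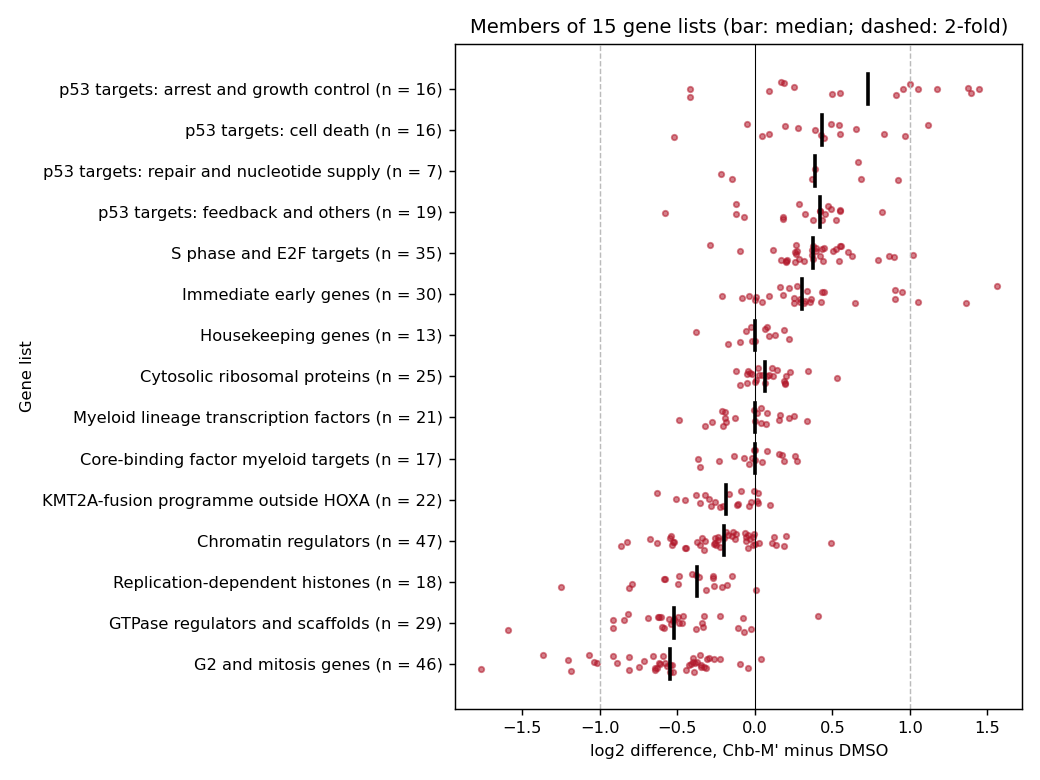
Difference in log2 level, Chb-M' minus DMSO (horizontal axis), for the tested members of 15 gene lists, 1 point per gene, with the list median as a black bar and 2-fold as dashed lines. The p53 arrest list has a median of 0.73 and the G2 and mitosis genes of -0.55, while housekeeping genes have 0.00.

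The RUNX genes and the myeloid programme showed small differences. RUNX2 had a level of 5.82 with Chb-M', 5.90 with Chb-50 and 6.13 with DMSO, and the knockdown arrays, which include those with RUNX2 shRNA, ran from 5.56 to 6.30. RUNX3 had 8.61 with Chb-M', 8.52 with Chb-50 and 8.30 with DMSO, against 7.65 to 8.37 on the knockdown arrays. CBFB, the shared partner, had 9.41 with Chb-M', 9.43 with Chb-50 and 9.57 with DMSO. Differences from DMSO were thus -0.31 for RUNX2, 0.31 for RUNX3 and -0.17 for CBFB, with limma adjusted p of 0.36, 0.60 and 0.58. RUNX1 was measured only by a cluster that it shares with LOC100506403, which read 4.13 with Chb-M' and 4.20 with DMSO. CBFA2T2, a co-repressor of the ETO family that spans 160 kb, lay 0.66 lower with a limma adjusted p of 0.079. Known core-binding factor targets in myeloid cells had a median of 0.00 over 17 genes, 8 above 0 and 9 below. Myeloid lineage transcription factors had a median of 0.00 over 21 genes, and azurophil granule proteins 0.08 over 13, with 0 members of the 3 lists at 2-fold or passing the fit. Housekeeping genes had a median of 0.00 over 13, cytosolic ribosomal proteins 0.07 over 25, and splicing factors 0.05 over 31. Interferon-stimulated genes, unfolded protein response genes and heat shock genes had medians of -0.06, -0.05 and -0.01. These last 3 lists differed far more between the knockdown arrays and both compound-study arrays, which lay higher at the median by 0.44, 0.34 and 0.36 with Chb-M' and by 0.47, 0.44 and 0.48 with DMSO.

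The genes that fell were mostly long. Of the 55 protein-coding genes that fell, 49 span more than 200 kb, as 5.16% of the protein-coding genes tested did, and their median span was 373 kb. None of the 13 protein-coding genes that rose spans more than 48.9 kb, and their median span was 10.3 kb. Spans were read from RefSeq on GRCh38.p14. The median difference changed step by step with span. It was 0.10 in the 2385 genes under 10 kb, 0.08 in the 3210 genes of 10 to 30 kb and 0.00 in the 3366 genes of 30 to 100 kb. It was -0.19 in the 1066 genes of 100 to 200 kb, -0.38 in the 473 genes of 200 to 500 kb and -0.59 in the 72 genes over 500 kb. In those last 2 bins 32 and 17 genes fell, which is 6.77% and 23.6% of them. Spearman's rho between difference and span was -0.41 over 10572 genes, a description across genes of the same pair of arrays.

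**Figure D3:**
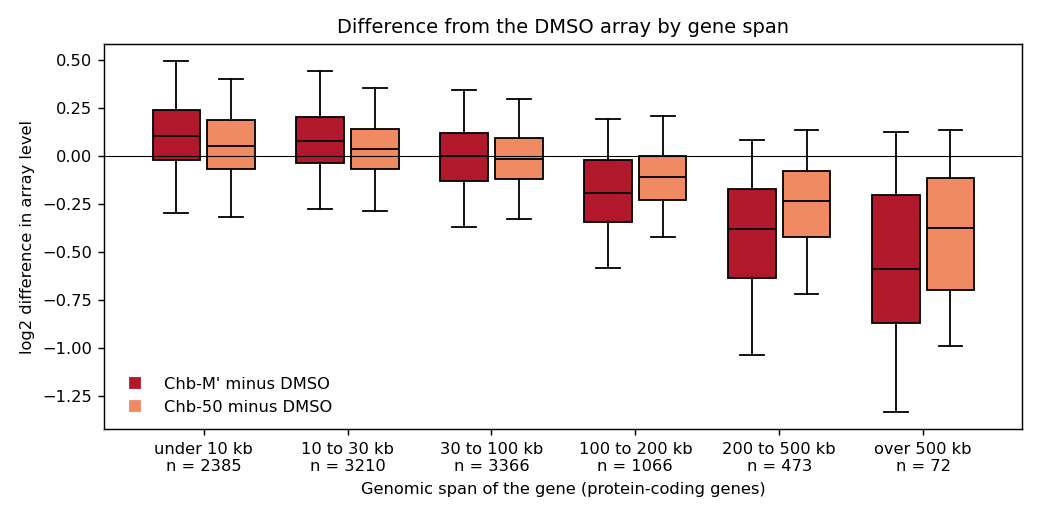
Difference in log2 level from the DMSO array (vertical axis) for protein-coding genes in 6 bins of genomic span, Chb-M' left and Chb-50 right in each bin. Boxes show the quartiles with the median, and whiskers the 5th and 95th percentiles. The Chb-M' median is 0.10 under 10 kb and -0.59 over 500 kb.

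The step was seen on the Chb-M' array and hardly on the DMSO array. Set against the median of the knockdown arrays, the medians for Chb-M' were 0.07 under 10 kb, -0.37 at 200 to 500 kb and -0.67 over 500 kb. For DMSO set against the same arrays they were 0.00, -0.01 and -0.11. The difference was also larger in long genes that were more highly expressed. Over 500 kb, the 31 genes in the lowest tertile of mean level on the knockdown arrays had a median of -0.22, the 23 in the middle tertile -0.70 and the 18 in the top tertile -0.90. In genes under 10 kb the 3 tertiles had medians of 0.08, 0.12 and 0.10. Signal near the floor of an array compresses differences, and its part in this gradient was not tested.

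Among the protein-coding genes that fell, those with the smallest adjusted p are given first. ADGRL3, an adhesion G protein-coupled receptor that spans 878 kb, had a level of 5.40 with Chb-M', 6.01 with Chb-50 and 7.05 with DMSO, and the knockdown arrays lay between 7.53 and 7.93 with a median of 7.82. CDKAL1, a tRNA-modifying enzyme that spans 698 kb, had 6.58 with Chb-M', 7.14 with Chb-50 and 8.07 with DMSO, against 7.83 to 8.28 (median 8.18). ARHGAP32, a GTPase-activating protein, had 3.96 with Chb-M', 4.72 with Chb-50 and 5.55 with DMSO, against 5.22 to 5.68 (median 5.58). In each of these 3 genes the order of the arrays was the same, with Chb-M' lowest, Chb-50 next and the other 9 above both. ADGRL3 fell by 1.65, CDKAL1 fell by 1.49 and ARHGAP32 fell by 1.59, each with a limma adjusted p of 0.025, and these 3 and SSBP2 were the protein-coding genes that also passed without the shRUNX1+shRUNX3 array. SSBP2, a single-stranded DNA-binding protein, had 4.11 with Chb-M' and 5.33 with DMSO and fell by 1.22 (SE 0.10, limma adjusted p = 0.025).

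XRCC4, MSH3 and ASCC3, which act in DNA repair, were among the long genes that fell. XRCC4, which holds DNA ligase IV at broken ends during end joining, spans 297 kb and had levels of 6.59 with Chb-M', 6.93 with Chb-50 and 7.68 with DMSO, against 7.34 to 7.57 on the knockdown arrays (median 7.43). XRCC4 fell by 1.09 (SE 0.12, limma adjusted p = 0.032). MSH3, a mismatch repair protein that spans 222 kb, had 6.07 with Chb-M', 6.70 with Chb-50 and 7.10 with DMSO, against 6.85 to 7.11 (median 6.99), and fell by 1.03 (SE 0.14, limma adjusted p = 0.034). ASCC3, a helicase of the alkylation repair complex that spans 373 kb, fell by 0.77 (limma adjusted p = 0.049), with levels of 6.63 with Chb-M' and 7.41 with DMSO. In the list of excision, mismatch and other repair, XRCC4 was 1 of 5 members of 100 kb or more and the only one that fell. The others of that length were REV3L, POLQ, MGMT and PRKDC, and neither MSH3 nor ASCC3 was on the list. Those 5 all lay below 0 with a median of -0.24, and the 28 shorter ones had a median of 0.12. The Fanconi and homologous recombination list showed no such step at 100 kb. Its 4 members of 100 kb or more had a median of 0.07, 2 of them below 0, and the 18 shorter ones -0.01. Over all 22 tested members, however, Spearman's rho between difference and span was -0.38.

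Transcription and chromatin genes that fell included FOXP1, a forkhead repressor that spans 629 kb, at 6.12 with Chb-M' and 7.01 with DMSO. Its relative FOXP2 spans 607 kb and had 6.14 with Chb-M' and 7.43 with DMSO. NCOA2, a nuclear receptor coactivator, had 5.52 with Chb-M' and 6.80 with DMSO. MAML3, a Notch coactivator, had 3.43 with Chb-M' and 4.64 with DMSO. Their limma adjusted p were 0.033 for FOXP1, 0.049 for FOXP2, 0.033 for NCOA2 and 0.034 for MAML3. BAZ2B, a bromodomain protein, fell to 8.10 with Chb-M', against 9.12 with DMSO, and STAG1, a cohesin subunit, fell to 5.53 with Chb-M', against 6.53 with DMSO. Genes at large common fragile sites, which lie in very long transcription units, were tested in 9 of 32 cases, and all 9 lay below 0 with a median of -0.47. Of these DPYD, which degrades pyrimidines, and DIAPH2, a formin that nucleates actin, fell by 1.10 and by 0.92. WWOX and FRMD4A, of 1113 kb and 687 kb, each lay at -0.02, so long span did not always go with a lower level. The level of WWOX was 5.16 with Chb-M' and 5.18 with DMSO. PPARGC1A, a coactivator of mitochondrial genes that spans 681 kb, had the highest difference over 500 kb, 0.32.

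Regulators of small GTPases were nearly all long genes. Of 29 tested members of 37, 28 span 100 kb or more, and the median span was 264 kb. Of the 29, 28 lay lower, with a median of -0.52, 1 at 2-fold and 2 that fell, ARHGAP32 and ARHGAP15. Among all protein-coding genes tested, 77.4% of those of 100 to 200 kb and 88.8% of those of 200 to 500 kb lay below 0. The exchange factor gene VAV3, of 394 kb, was at -0.84, and its relative VAV1, of 85 kb, at -0.11. NF1, the Ras GTPase activator, of 283 kb, was at -0.82 with a limma adjusted p of 0.073. When the median of its span bin was subtracted from each gene, the list's median was -0.20. The same subtraction left the p53 arrest list at 0.63, the S phase list at 0.32, the G2 and mitosis list at -0.60 and the histones at -0.47. The fragile site list, at -0.47 before, was at 0.12 after it.

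Within lists of 1 function, Spearman's rho between difference and span was below 0 in 29 of the 34 lists with at least 15 tested members, with a median of -0.31 and a range from -0.86 to 0.30. It was near 0 in some, at -0.10 for the replication checkpoint list and -0.08 for hypoxia and glycolysis genes, and highest for the histones. In the G2 and mitosis list rho was -0.29 over 46 genes. Its 2 members of 100 kb or more had a median of -0.20 and the 44 shorter ones -0.56. The lists with the 3 lowest values of rho follow. Among 47 chromatin regulators, of which 39 lay below 0 and 0 at 2-fold, rho was -0.76. KDM4C, a histone lysine demethylase of 455 kb, had 4.44 with Chb-M' and 5.30 with DMSO, and KMT2C, a histone methyltransferase of 301 kb, had 7.68 with Chb-M' and 8.50 with DMSO. SETD1A, another methyltransferase, of 27 kb, had 6.32 with Chb-M' and 5.83 with DMSO. Among 36 genes of RNA polymerase II and elongation, rho was -0.77. Its 7 members of 100 kb or more had a median of -0.40 and all lay below 0, against a median of 0.07 for the 29 shorter ones. MNAT1, a subunit of the CDK-activating kinase, was lowest at -0.85, and HEXIM1, the short gene for an inhibitor of the elongation factor P-TEFb, was highest at 0.62. Among the 22 genes of the KMT2A-fusion programme rho was -0.86. In that programme, the 13 members of 100 kb or more had a median of -0.29 and the 9 shorter ones -0.02. ARID1B, a chromatin remodeller subunit, was at -0.63 and JMJD1C at -0.51, while MYC was at -0.03 and MEN1, the KMT2A partner menin, at -0.02.

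**Figure D4:**
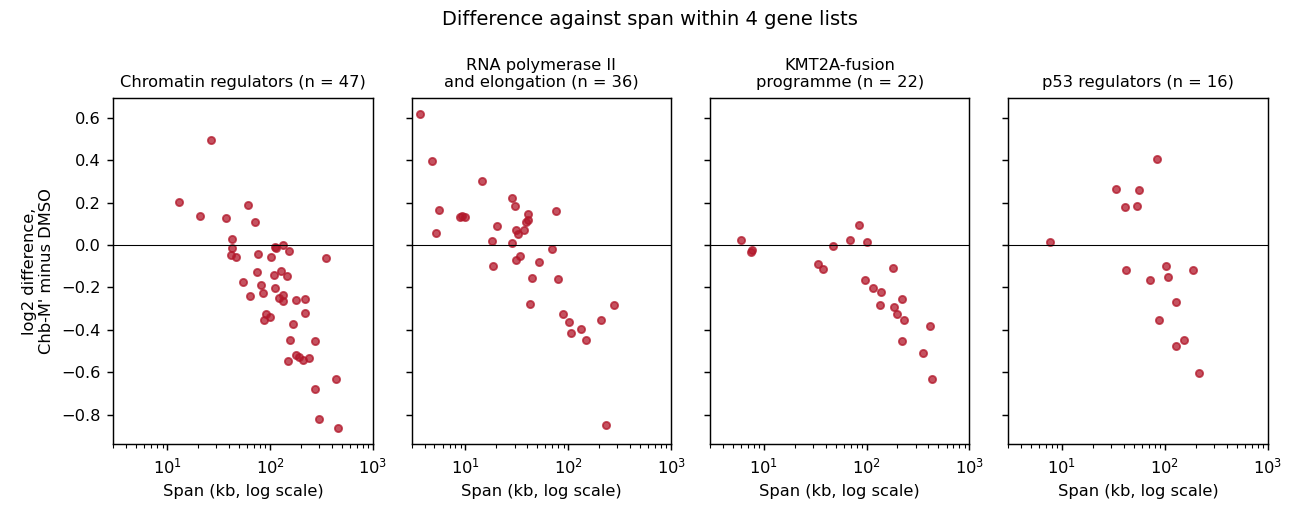
Difference in log2 level, Chb-M' minus DMSO (vertical axis), against genomic span in kb on a log scale (horizontal axis) for the members of 4 gene lists, 1 point per gene. The first 3 lists have the lowest rho of all lists, and in each of the 4 the members of 100 kb or more lie lower, with medians of -0.26 for chromatin regulators, -0.40 for RNA polymerase II genes, -0.29 for the KMT2A-fusion programme and -0.27 for p53 regulators.

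Set directly against Chb-50 at the same dose and time, Chb-M' differed by at least 2-fold in 24 genes (0.198%), 15 higher (0.123%) and 9 lower (0.0741%). The limma fit passed 0 of the 12147 genes in this 1 pair of compounds, and 869 had an unadjusted p under 0.05. Chb-50 set against DMSO gave 36 genes at 2-fold (0.296%), 17 higher (0.14%) and 19 lower (0.156%), and 0 past the fit, with 1114 at an unadjusted p under 0.05. The comparisons of each compound with DMSO share the DMSO array. Side by side, the median over the p53 arrest list was 0.73 with Chb-M' and 0.36 with Chb-50. Over G2 and mitosis genes it was -0.55 with Chb-M' and -0.39 with Chb-50, and over S phase genes 0.38 with Chb-M' and 0.27 with Chb-50. Over genes of 200 to 500 kb it was -0.38 with Chb-M' and -0.24 with Chb-50. The direct difference in CDKN1A was 0.21 (95% interval -0.28 to 0.71) and in CENPE -0.61 (95% interval -1.43 to 0.21), so both intervals held 0. In ARHGAP32 the direct difference was -0.77 (95% interval -1.11 to -0.43) and in MSH3 it was -0.64 (95% interval -0.95 to -0.32). The immediate early genes were farthest apart among the named genes. FOSB differed by 1.62 (95% interval 0.98 to 2.25), FOS by 1.31 (0.52 to 2.11) and EGR1, chosen after its values were seen, by 1.19 (0.35 to 2.03). EGR1, a zinc finger factor of the same early wave, had 7.07 with Chb-M', 5.88 with Chb-50 and 6.16 with DMSO. For these 3 genes Chb-50 lay near DMSO, at differences of -0.26, 0.25 and -0.29. These intervals cover single genes and are not adjusted over the genes compared. CENPE, ARHGAP32, MSH3, FOSB and FOS were named for their difference from DMSO, which uses the same Chb-M' array. Their direct differences are therefore biased away from 0 by that choice.

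Promoters, taken as 250 bases before to 50 after the start in RefSeq on GRCh38.p14, were found for 8768 of the 10572 protein-coding genes. Each was searched on both strands for TGTGGT and TGCGGT, the core letters of RUNX sites, and for TTTGAA, the core of the cell cycle homology region found in promoters of mitosis genes. The 4 promoters below are examples from genes at least 2-fold lower that hold TGTGGT or TTTGAA, which are in capitals on either strand. Other such promoters are not shown. FER, a tyrosine kinase gene that fell, and MAML3 each hold TGTGGT once, the mitosis gene DLGAP5 holds TTTGAA 3 times, and KIF18A holds both, close together near its start.

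FER, chr5:108747647-108747946, + strand: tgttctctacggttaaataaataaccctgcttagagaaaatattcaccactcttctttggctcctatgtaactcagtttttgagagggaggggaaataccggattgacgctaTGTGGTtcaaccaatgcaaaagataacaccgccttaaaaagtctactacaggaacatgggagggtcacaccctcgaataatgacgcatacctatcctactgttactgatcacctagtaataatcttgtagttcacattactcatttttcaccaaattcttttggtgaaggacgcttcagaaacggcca
MAML3, chr4:140154135-140154434, - strand: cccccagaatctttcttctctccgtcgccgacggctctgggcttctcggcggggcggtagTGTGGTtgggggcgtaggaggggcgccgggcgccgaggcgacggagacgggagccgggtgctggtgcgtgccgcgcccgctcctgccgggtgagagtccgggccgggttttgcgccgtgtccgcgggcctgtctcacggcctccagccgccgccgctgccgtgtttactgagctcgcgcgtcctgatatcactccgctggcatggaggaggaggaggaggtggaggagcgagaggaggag
KIF18A, chr11:28108107-28108406, - strand: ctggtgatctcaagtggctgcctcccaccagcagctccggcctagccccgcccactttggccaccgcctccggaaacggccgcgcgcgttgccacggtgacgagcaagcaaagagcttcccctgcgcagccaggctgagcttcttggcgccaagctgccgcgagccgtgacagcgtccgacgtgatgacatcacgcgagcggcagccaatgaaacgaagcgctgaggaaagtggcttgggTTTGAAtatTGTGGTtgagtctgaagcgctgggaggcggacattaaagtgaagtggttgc
DLGAP5, chr14:55191536-55191835, - strand: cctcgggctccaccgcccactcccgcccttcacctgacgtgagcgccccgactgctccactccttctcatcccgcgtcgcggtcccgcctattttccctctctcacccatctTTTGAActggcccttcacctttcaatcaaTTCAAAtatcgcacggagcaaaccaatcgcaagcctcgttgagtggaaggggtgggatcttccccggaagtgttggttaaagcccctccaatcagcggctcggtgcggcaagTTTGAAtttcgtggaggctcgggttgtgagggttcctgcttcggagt

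TGTGGT was held by 5 of 52 promoters of genes at least 2-fold lower, or 9.62%, and by 7 of 46 promoters of genes that fell, or 15.2%. In all promoters it was held by 837 of 8768, or 9.55%. None of the 15 promoters of genes at least 2-fold higher held it. TGCGGT was held by 3 of those 15, by 3 of the 52 and by 10.3% of all promoters. Genes with TGTGGT had a median difference of 0.01 and genes without it 0.02. TTTGAA was held by 28 of 41 promoters of the G2 and mitosis list, or 68.3%, by 1 of 31 of the S phase list and by 9.95% of all promoters. The 872 genes with TTTGAA had a median difference of -0.04, against 0.03 in the 7896 without it. The 62 promoters of genes over 500 kb held TGTGGT in 11.3% of cases. Searched too were TGANTCA (N is any base), TGACGTCA and the p53 half-site. The half-site was held by 1 of 12 promoters of the p53 arrest list, 0 of 7 of genes that rose and 5.08% of all promoters. It was held by 2 of the 15 promoters of genes at least 2-fold higher and 5 of the 52 of genes at least 2-fold lower. TGANTCA was held by 2 of the 15, 0 of the 52 and 4.23% of all, and TGACGTCA by 0, 1 and 3.28%. A match is a string of letters in this window and says nothing of binding, and sites within the transcribed length of the long genes were not searched here.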

How the data were processed

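Total RNA was hybridised to 11 arrays, 1 per condition. Each deposited value is the log2 signal of 1 transcript cluster. Per the submitters' processing notes, RMA, Affymetrix Expression Console 1.3.1 and Transcriptome Analysis Console 1.0 were used; no source used here names a genome build for them. Of 53617 clusters, 23558 carried 1 gene symbol in the platform annotation, 2155 several and 27904 none; only the first were used. Of these, 22271 matched RefSeq. For the 618 genes with several clusters, the one with the highest mean was kept. Genes were tested if any array reached 3.80, the median of all values, which left 12147. Array medians over these lay between 5.86 and 5.91.

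The comparison was the log2 difference of 2 arrays, counted at 2-fold. limma 3.58.1 in R 4.3.3 gave intervals and p-values: Chb-M', Chb-50 and DMSO each had a level of their own, and the 8 knockdown arrays had additive terms for each shRNA, with 4 residual degrees of freedom plus 3.19 from the prior. The fit was tested on simulated data. The p-values measure the spread of single knockdown arrays around the additive terms, which mixes array noise with joint shRNA effects beyond addition. No biological replicates are given for these arrays. Named genes were the highest and lowest of all, in each list and span bin, those past the fit and the RUNX and p53 regulators; small RNAs, olfactory receptors and uncharacterised loci were counted, not named. The 44 gene lists, their members and the comparisons were chosen with earlier results of these data known. Alternatives changed the fold, the filter, the scaling, the choice of cluster and the arrays in the fit. Some genes are not analysed here.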

Additional observations from a re-analysis of the deposited data

How the results depend on the processing

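At 1.5-fold 663 genes lay apart (273 higher, 390 lower) and at 3-fold 9 (4 higher, 5 lower). The stricter filter left 53 (12 higher, 41 lower), protein-coding genes alone gave 20 higher, and setting Chb-M' against the median of the knockdown arrays, an alternative chosen after seeing the data, gave 161 (68 higher). No 2-fold count moved by more than 1.5 times without the filter, after median centring, after quantile normalisation or with the mean of a gene's clusters. The limma calls depended on more choices. They numbered 7 (0 higher, 7 lower) without the filter, when 22109 genes were tested, 128 (105 lower) with the stricter filter, 49 (38 lower) with the mean of clusters, 144 (37 higher, 107 lower) with the number of shRNA targets as a numeric term and 94 lower with a trend in the prior. Leaving out 1 knockdown array at a time gave 0 to 77 calls, with 0 to 15 higher and 0 to 62 lower, and the cause was not tested. Of 89 named genes, none that passed or lay at 2-fold changed sign. Their differences could change only with median centring, quantile normalisation or the mean of a gene's clusters. The other settings kept the same subtraction, so the sign was fixed in them. Among the list and span medians reported in full, 5 moved by more than 0.16, the median SD of a gene's difference in the fit: the p53 arrest list was at 0.98 with the stricter filter, S phase at 0.18 against the knockdown arrays, genes of 200 to 500 kb at -0.13 and over 500 kb at -0.042 without the filter, and over 500 kb at -0.81 with the stricter filter. Without the filter those bins hold 998 and 293 genes, against 473 and 72 with it. Beyond all other 10 arrays by 1.5-fold lay 14 genes above and 21 below, and by 3-fold 0 and 0. No paired analysis was possible because every array is replicate 1 of its condition. With 1 array a condition, replicate variation of Chb-M' and DMSO was not measured.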
